A study of Mus musculus with 6 samples.

Results

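Chromatin accessibility at the genes of Wnt ligands, receptors and modulators was described in freshly isolated muscle stem cells (MuSCs), the PAX7-positive cells that rebuild damaged skeletal muscle, of control and Taf4a sKO mice. The members were all ATAC-seq peaks assigned to a protein-coding gene named Wnt, Fzd, Sfrp, Dkk or Rspo with a number, or to Lgr4, Lgr5, Lgr6, Lrp5, Lrp6, Axin1, Axin2, Lef1, Tcf7 or Tcf7l1. This gave 93 of 75412 peaks, spread over 44 genes. ATAC-seq measures where the Tn5 transposase can insert into DNA, so a peak is a stretch of open chromatin and says nothing by itself about how much RNA or protein a gene makes.

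Taf4a sKO mice carry floxed Taf4a alleles, in which exons 11 and 12 are flanked by loxP sites, together with a tamoxifen-inducible Cre recombinase expressed from Pax7 (Pax7CreERT), and received tamoxifen. Taf4a, listed as Taf4 in the annotation, encodes a subunit of the general transcription factor TFIID. According to the methods, control littermates had the same floxed alleles, with or without the Cre allele, while the labels call these samples WT and their genotype Control. Whether control mice also received tamoxifen was not stated. If they did not, its effect cannot be told apart from that of the genotype. All mice were on a C57BL/6 background. Animals of both sexes, 8 to 20 weeks old, were used in the study, but sex, age and the interval since tamoxifen were not given for each library. MuSCs came from limb and trunk muscles by removal of SCA1-, CD45- and CD31-positive cells with magnetic beads and sorting for the MuSC surface protein integrin α7 or for a Pax7 reporter, and 3 libraries per genotype were made. Whether each library came from a single animal was not given, so the p-values measure the spread between these libraries.

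Wnt proteins are secreted, lipid-modified ligands that bind Frizzled receptors and the coreceptors LRP5 and LRP6. In the canonical branch this stops the Axin-containing destruction complex from degrading β-catenin, which then enters the nucleus and activates target genes together with LEF1 and TCF proteins. R-spondins amplify the signal through LGR receptors, whereas SFRP and most DKK proteins are secreted antagonists. In skeletal muscle, WNT7A acting through FZD7 is known to expand the satellite cell pool, and canonical signalling accompanies differentiation during regeneration.

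The sum of the normalized values over all peaks was 37722015, 35226223 and 42803315 in control replicates 1 to 3 and 44311913, 41661725 and 41948821 in Taf4a sKO replicates 1 to 3. Each value is a read count multiplied by a depth factor of its library, between 1.00 and 1.39, and rounded. A normalized value of 20 therefore stands for 14.4 reads in the most strongly scaled libraries, and peaks with low values rest on few reads.

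The deleted exon served as a check of the genotypes. The peak over exon 12 of Taf4 (chr2:179922849-179923263, mm10) had normalized values of 65, 78 and 137 in control and of 44, 22 and 25 in Taf4a sKO libraries. All mutant values were below all control values (log2 fold change -1.58, SE 0.30, limma adjusted p = 0.00034). Some signal over this exon remained in each mutant library. At the Taf4 promoter, which the deletion spares, the values were 2305, 1998 and 2375 against 2095, 2124 and 2104, and the genotypes overlapped (adjusted p = 0.59), although this peak was called lower with TMM factors (-0.19, adjusted p = 0.0099). A Taf4 peak 3331 bp upstream of the TSS, also outside the deletion, was higher, with 488, 437 and 653 against 831, 695 and 759 (0.55, SE 0.14, adjusted p = 0.003).

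Sequences of the lower Wnt4, Rspo1 and Wnt2 peaks are shown first, for the first 2 only as far as they lie before the start sites. The Wnt4 stretch is the part of its RefSeq promoter windows (GRCm38.p6) that precedes the start sites, the Rspo1 stretch is the 250 bases before its start site, and the Wnt2 peak is printed whole. Capitals mark matches on either strand to the letters of 5 motifs, namely CTTTGAT (TCF/LEF), CCAAT (NF-Y), GGGCGG (Sp/Klf), TGANTCA (AP-1) and CANNTG (E-box), and a match is a description of letters, not evidence of binding. The Wnt4 stretch held 5 GGGCGG matches, 2 of which overlap, and the Rspo1 stretch held none of the 5 motifs. The whole Rspo1 peak, which runs on into the transcribed part that is not printed, held 2 CCAAT, 7 GGGCGG and 7 CANNTG matches. The whole Wnt4 peak, also longer than the printed stretch, held 2 CCAAT, 19 GGGCGG and 6 CANNTG matches.
Wnt4 promoter, chr4:137277385-137277488, plus strand: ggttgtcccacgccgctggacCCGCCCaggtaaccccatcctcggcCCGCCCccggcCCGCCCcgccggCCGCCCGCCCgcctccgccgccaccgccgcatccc
Rspo1 promoter, chr4:124986180-124986429, plus strand: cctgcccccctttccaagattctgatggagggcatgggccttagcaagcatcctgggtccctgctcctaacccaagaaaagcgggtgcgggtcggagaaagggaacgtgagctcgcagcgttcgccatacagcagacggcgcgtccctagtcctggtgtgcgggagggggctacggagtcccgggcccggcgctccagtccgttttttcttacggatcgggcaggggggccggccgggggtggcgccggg
Wnt2 intronic peak, chr6:18025485-18025645, plus strand: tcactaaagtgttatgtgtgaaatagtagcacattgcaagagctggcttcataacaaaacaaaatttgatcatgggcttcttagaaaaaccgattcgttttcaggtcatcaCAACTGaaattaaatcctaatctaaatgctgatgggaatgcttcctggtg

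The next set shows higher peaks of Wnt1, Wnt10b and Wnt16, whose calls stayed under the threshold without each library in turn, as the central 200 bases of each peak or, for Wnt10b, the whole peak of 186 bases. Increases larger than that of Wnt16 at Dkk2, Fzd10 and Wnt7a are described further on without their sequences. The Axin2 sequences are given because Axin2 is the classical feedback target of canonical signalling. Its intronic peak held 1 TCF/LEF match, and its promoter peak held 2, printed as windows of 30 bases. In these windows only the TCF/LEF match is in capitals, and the window of match 2 also holds a GGGCGG match in lower case.
Wnt1 downstream peak, chr15:98796783-98796982, plus strand: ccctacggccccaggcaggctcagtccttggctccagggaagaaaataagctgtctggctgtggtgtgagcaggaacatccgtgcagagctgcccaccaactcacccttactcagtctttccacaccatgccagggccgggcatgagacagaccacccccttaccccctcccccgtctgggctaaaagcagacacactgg
Wnt10b upstream peak, chr15:98780235-98780420, plus strand: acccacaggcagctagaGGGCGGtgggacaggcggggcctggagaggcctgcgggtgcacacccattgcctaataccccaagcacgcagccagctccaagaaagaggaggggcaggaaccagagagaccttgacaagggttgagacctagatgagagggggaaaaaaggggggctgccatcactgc
Wnt16 upstream peak, chr6:22280286-22280485, plus strand: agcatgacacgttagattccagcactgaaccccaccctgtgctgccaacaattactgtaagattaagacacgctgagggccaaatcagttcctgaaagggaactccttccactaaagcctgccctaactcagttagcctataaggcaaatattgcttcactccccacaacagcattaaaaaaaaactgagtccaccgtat
Axin2 intronic peak, chr11:108927094-108927293, plus strand: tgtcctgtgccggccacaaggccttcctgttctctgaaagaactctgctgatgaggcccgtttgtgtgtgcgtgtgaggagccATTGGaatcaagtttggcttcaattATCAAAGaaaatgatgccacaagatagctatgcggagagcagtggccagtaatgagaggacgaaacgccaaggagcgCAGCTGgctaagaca
Axin2 promoter peak, match 1, chr11:108920416-108920445, plus strand: agccggctgcgCTTTGATaaggtcctggca
Axin2 promoter peak, match 2, chr11:108921221-108921250, plus strand: cggccggcgcgCTTTGATgtgcggggcggc

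Among the 93 Wnt peaks, 15 peaks of 13 genes were higher in Taf4a sKO MuSCs, 4 peaks of 4 genes were lower, and 74 passed neither test (limma, adjusted p under 0.05 over 75384 peaks). The peaks at the start sites of Wnt4, Rspo1 and Lgr5 and an intronic peak of Wnt2 were lower, whereas distal peaks of Wnt1, Wnt10b, Wnt16, Fzd10, Dkk2 and Axin2 were among the higher ones. Changes were moderate, with log2 fold changes between -1.02 and 0.87. Of the 44 genes, 27 had no called peak among the 93, and no gene had peaks of the 93 called in both directions. In all 19 called peaks of the 93 the values of the genotypes did not overlap. Peaks assigned to no gene were not among the 93. Inside Wnt4 one was higher, against the promoter peak, with overlapping values of 100, 105 and 171 in control and 176, 170 and 210 in Taf4a sKO libraries (0.6, limma adjusted p = 0.016). Inside Wnt10a one was lower, against its higher promoter peak, with 559, 537 and 536 against 397, 393 and 378 (-0.48, adjusted p = 0.0029).

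These shares were read against the whole table. Of all peaks tested, 28% were called higher and 13.9% lower, while the Wnt peaks reached 16.1% and 4.3%. The Wnt peaks were closer to start sites than most peaks in the table, and near start sites fewer peaks were called in general. Within 1000 bp of the transcription start site (TSS), 10% of peaks of protein-coding genes were higher and 5.67% lower. There, 6 of 43 Wnt peaks were higher (14%) and 3 were lower (6.98%), which is near the background. Beyond 1000 bp, 26% of such peaks were higher and 14% lower, whereas 9 of 50 Wnt peaks were higher (18%) and 1 was lower (2%). By their values alone, 24 Wnt peaks had all 3 mutant values above all 3 control values and 6 had them below, against 32.3% and 18% of all peaks. Under the rule by which the study classed peaks, a log2 ratio of group means beyond 1, no Wnt peak was gained and 1, at Wnt2, was lost, where 7.03% of all peaks were gained and 5.36% lost.

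**Figure D1:**
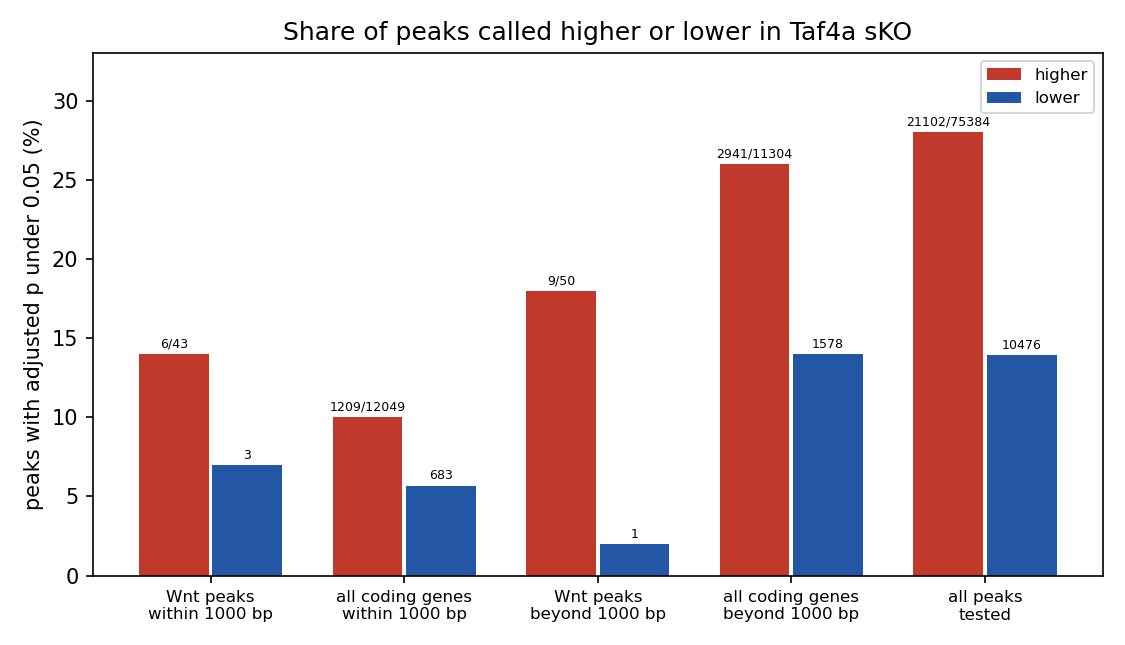
Share of peaks called higher (red) or lower (blue) in Taf4a sKO MuSCs by limma, in percent of the peaks tested, for Wnt peaks and for all protein-coding peaks within and beyond 1000 bp of the TSS, and for all peaks. Numbers above the bars are peaks called, for the higher bars with the number tested; 6 of 43 Wnt peaks near a TSS and 9 of 50 farther away were higher.

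The direction of small changes depended on how libraries were scaled. The median log2 fold change of all peaks was 0.11 with the deposited values and -0.01 with TMM factors, and the median of the Wnt peaks was 0.10 and -0.02. With TMM factors 10 Wnt peaks were higher and 12 lower, so that the higher peaks made up 45.5% of the calls instead of 78.9%. Over the whole table the balance moved the same way, with 25.4% of all peaks higher and 22.3% lower with TMM factors. All 10 higher peaks were among the 15 above, and the 4 lower ones were kept. Leaving out 1 library at a time changed the number of higher peaks to between 7 and 24, and the 24 were reached without control replicate 3, whose values summed to the most of the control group. The whole table moved with it, since 37.8% of all peaks were higher without control replicate 3 and between 21.3% and 25% without each of the other libraries. The count fell to 8 without control replicate 1, to 9 without control replicate 2 or Taf4a sKO replicate 2 and to 7 without Taf4a sKO replicate 3. Only 8 of the 19 calls stayed under the threshold in all 6 of these fits, namely the peaks of Wnt4, Rspo1 and Lgr5 among the lower ones and single peaks of Wnt1, Wnt10b, Wnt16, Wnt8a and Fzd10 among the higher ones.

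**Figure D2:**
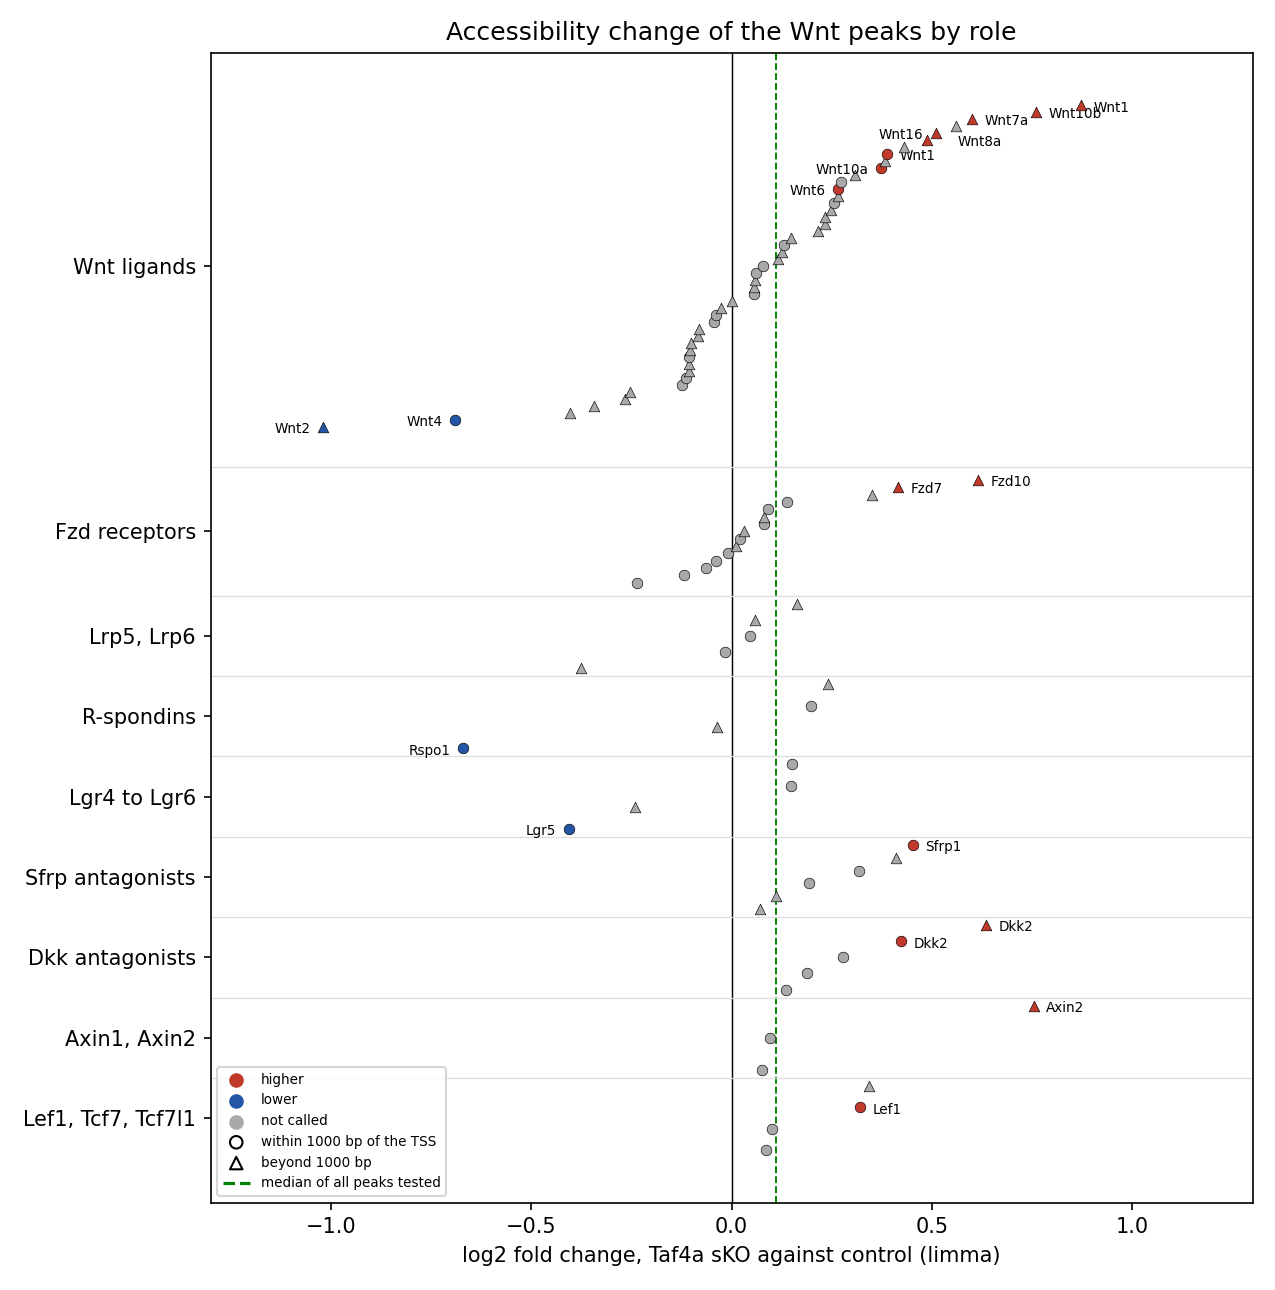
Log2 fold change of each of the 93 Wnt peaks (horizontal axis, limma, Taf4a sKO against control), grouped by role. Circles lie within 1000 bp of the TSS and triangles beyond, colour gives the call, and the dashed line is the median of all peaks tested, 0.11. Called peaks carry the gene name, and the lower ones are Wnt2, Wnt4, Rspo1 and Lgr5.

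Wnt ligands were represented by 47 peaks of 17 genes, with a median log2 fold change of 0.08. Of these peaks 8 were higher (17%) and 2 lower (4.26%), against 28% and 13.9% of all peaks. The clearest change was at Wnt4, which encodes a ligand that often signals without β-catenin. Its promoter peak (chr4:137276815-137279016, centre 427 bp downstream of the TSS) had normalized values of 2899, 2705 and 2884 in control and 1699, 1710 and 1855 in Taf4a sKO libraries. All 3 mutant libraries were far below the control libraries (log2 fold change -0.69, SE 0.10, adjusted p = 7e-06). In a sorted population, fewer cells with an open site and less opening per cell cannot be told apart. The second Wnt4 peak, 9575 bp downstream of the TSS, had values of 2252, 2038 and 2335 against 2184, 1983 and 2002. It overlapped between genotypes and was not called (log2 fold change -0.10, SE 0.10), although it was called lower with TMM factors (-0.21, adjusted p = 0.0033).

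At Wnt2, which encodes a canonical ligand, the peak 5020 bp into the gene had values of 33, 25 and 51 in control and 11, 19 and 22 in Taf4a sKO libraries (log2 fold change -1.02, SE 0.35, adjusted p = 0.023). These values correspond to between 8 and 41 reads, and the adjusted p was 0.11 without control replicate 3 or without Taf4a sKO replicate 1. The other Wnt2 peaks, at 98 bp downstream and 1060 bp upstream of the TSS, had log2 fold changes of -0.11 and 0 and were not called.

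Wnt1 and Wnt10b, both canonical ligands, lie next to each other on chromosome 15, 11707 bp apart. Together they had 8 peaks, of which 3 were higher and none was lower. Of all peaks 28% were higher and 13.9% lower, and 8 peaks are too few to set against these shares. The peak 7026 bp downstream of the Wnt1 TSS had values of 57, 72 and 71 in control and 92, 148 and 134 in Taf4a sKO libraries. It showed the largest log2 increase of all Wnt peaks (0.87, SE 0.21, adjusted p = 0.0015), with replicate 1 the lowest of the mutant libraries. The Wnt1 promoter peak, with 528, 552 and 721 against 741, 815 and 779, was also higher (0.39, SE 0.13, adjusted p = 0.017), but control replicate 3 came close to the mutant values and the adjusted p rose to as much as 0.1 when single libraries were left out. At Wnt10b the higher peak lay 2178 bp upstream of the TSS, with values of 47, 44 and 58 in control and 74, 88 and 92 in Taf4a sKO libraries (0.76, SE 0.21, adjusted p = 0.0062). The Wnt10b promoter peak itself overlapped between genotypes, at 242, 218 and 249 against 235, 222 and 232 (-0.04, SE 0.14).

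Wnt16 showed the same arrangement of a higher upstream peak beside an uncalled promoter. The peak 7841 bp upstream had values of 370, 313 and 405 in control and 498, 533 and 512 in Taf4a sKO libraries, and no control library reached a mutant one (0.51, SE 0.13, adjusted p = 0.0033). The Wnt16 promoter had values of 331, 317 and 377 against 347, 380 and 354 (0.08, SE 0.13). At Wnt8a, an exonic peak 5307 bp downstream of the TSS had values of 340, 320 and 362 against 515, 437 and 483 (0.49, SE 0.13, adjusted p = 0.0043), and 2 further Wnt8a peaks were not called.

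Wnt7a, the ligand tied to satellite cell expansion, had 1 intronic peak with values of 46, 35 and 53 in control and 69, 63 and 70 in Taf4a sKO libraries (0.60, SE 0.23, adjusted p = 0.041). This call was lost with TMM factors (adjusted p = 0.058) and without each library in turn other than control replicate 3. The Wnt7a promoter peak overlapped between genotypes, at 154, 175 and 195 against 148, 166 and 165 (-0.12, SE 0.16, adjusted p = 0.57).

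Wnt6 and Wnt10a lie 6194 bp apart on chromosome 1, and both promoter peaks were higher. Wnt10a had values of 288, 300 and 280 in control and 373, 377 and 374 in Taf4a sKO libraries (0.37, SE 0.13, adjusted p = 0.026). Its mutant libraries were nearly equal, but the call was lost with TMM factors (adjusted p = 0.073) and without control replicate 1 or any 1 mutant library (adjusted p up to 0.094). For Wnt6 the values were 1767, 1644 and 1980 against 2245, 2043 and 2181 (0.27, SE 0.10, adjusted p = 0.042), and all mutant libraries were above the highest control. This call was lost without each library in turn other than control replicate 3 (adjusted p up to 0.16). The 4 other Wnt10a peaks and the other Wnt6 peak were not called.

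No peak was called for 8 other ligand genes, which were Wnt2b, Wnt3, Wnt3a, Wnt5a, Wnt5b, Wnt7b, Wnt9a and Wnt11. The Wnt5a peaks, near the gene of a typical non-canonical ligand, had log2 fold changes of 0.26, 0.26 and 0.15. The Wnt11 promoter peak, with 640, 636 and 674 in control and 723, 798 and 840 in Taf4a sKO libraries, missed the threshold (0.27, SE 0.11, adjusted p = 0.059). A second Wnt11 peak over a start site, 3778 bp downstream, went the other way, with 207, 195 and 255 against 179, 159 and 177 (-0.34, SE 0.16, adjusted p = 0.083), and was called lower with TMM factors (-0.45, adjusted p = 0.0078). With TMM factors a peak of Wnt2b (-0.22) and one of Wnt10a (-0.37) were also called lower. Wnt3 had no peak within 1000 bp of its TSS, and its 2 upstream peaks had log2 fold changes of -0.27 and -0.40.

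**Figure D3:**
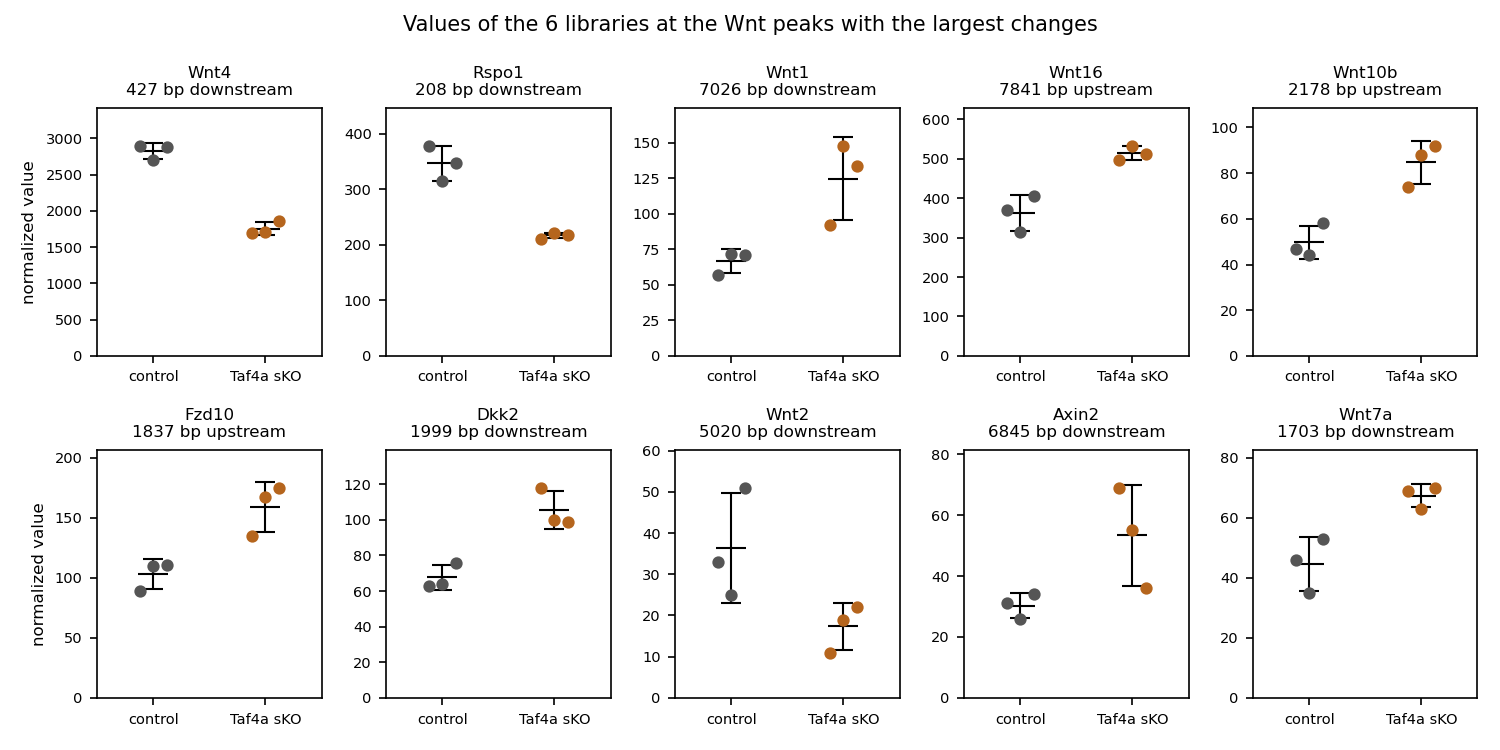
Normalized values of the 6 libraries (points) with the mean and SD of each genotype (bars) at the peak with the largest change of each gene that passed the test with a log2 fold change of at least 0.5 in size. Each vertical axis starts at 0, and the titles give the distance of the peak centre from the TSS; Wnt4, Rspo1 and Wnt2 were lower in Taf4a sKO and the other 7 genes were higher.

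Frizzled receptors were represented by 15 peaks of all 10 genes, with a median log2 fold change of 0.03. Of these peaks 2 were higher (13.3%) and none was lower, against 28% and 13.9% of all peaks. Both higher peaks lay outside promoters. Upstream of Fzd10 by 1837 bp, the values were 89, 110 and 111 in control and 135, 167 and 175 in Taf4a sKO libraries (0.62, SE 0.18, adjusted p = 0.0066), whereas the Fzd10 promoter peak was uncalled (-0.01, SE 0.15). Fzd7, the receptor paired with WNT7A in satellite cells, had a higher peak 1614 bp downstream of the TSS with 257, 256 and 266 against 329, 344 and 368 (0.42, SE 0.14, adjusted p = 0.016). This call was lost without Taf4a sKO replicate 3 (adjusted p = 0.1).

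The Fzd7 promoter peak was one of the most open sites of the whole group. Its values of 3194, 2857 and 3816 in control overlapped those of 3727, 3616 and 3453 in Taf4a sKO libraries (0.14, SE 0.11, adjusted p = 0.32). Without control replicate 3, which was the highest of all 6, the Fzd7 promoter was called higher (0.25, adjusted p = 0.011). Promoter peaks of Fzd1, Fzd2, Fzd3, Fzd5, Fzd6, Fzd8 and Fzd9 had log2 fold changes between -0.24 and 0.09, and none of these was called. With TMM factors those of Fzd1, Fzd3, Fzd6 and Fzd9 were called lower (-0.17, -0.15, -0.35 and -0.23). Fzd4 had its only assigned peak 5024 bp downstream of the TSS, because the peak over its start site is assigned in the table to Tmem135, the neighbouring gene. That peak was uncalled, with 4569, 3992 and 4736 in control and 4951, 4584 and 4645 in Taf4a sKO libraries (0.10, adjusted p = 0.47).

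None of the 5 peaks of the coreceptors Lrp5 and Lrp6 was called. The Lrp6 promoter had values of 2108, 2111 and 2459 in control and 2136, 2276 and 2181 in Taf4a sKO libraries, which overlapped fully (-0.02, SE 0.10, adjusted p = 0.92). Its small change turned positive without control replicate 3 (0.06) and without Taf4a sKO replicate 1 (0.01).

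R-spondins and their receptors had 4 peaks each, of which 1 each was lower, both at a start site, where 5.67% of protein-coding peaks were lower. These counts are too small to set against that share. Rspo1, which encodes a secreted amplifier of Wnt signalling, had a single peak over its TSS (chr4:124986062-124987213) with values of 378, 314 and 347 in control and 211, 221 and 218 in Taf4a sKO libraries. The mutant values lay close together and all below the controls (-0.67, SE 0.14, adjusted p = 0.0005). The same peak also covers the start site of Gm12930, so that the change cannot be given to either start site alone. Rspo3 had 3 peaks and none was called. Its promoter peak overlapped between genotypes, at 106, 135 and 105 against 139, 123 and 133 (0.20, SE 0.17), and its peak 1383 bp downstream, with 15, 31 and 26 against 24, 23 and 37, had the lowest control value per kb of all Wnt peaks.

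Among the R-spondin receptors, the Lgr5 promoter peak (chr10:115585950-115587962) had values of 577, 605 and 615 in control and 432, 467 and 457 in Taf4a sKO libraries. The highest mutant value was well below the lowest control value (-0.41, SE 0.12, adjusted p = 0.0089). Lgr5 is the well-known marker of intestinal stem cells and a target of canonical signalling there. The Lgr4 promoter, with 2761, 2561 and 3146 against 3286, 3095 and 2995, and the Lgr6 promoter, with 318, 349 and 395 against 369, 432 and 375, were not called (both 0.15, SE 0.10 and 0.14).

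Secreted antagonists had 11 peaks, of which 3 were higher and none was lower, where 28% of all peaks were higher and 13.9% lower. The higher peaks at the Dkk2 and Sfrp1 promoters lay within 1000 bp of the TSS, where 10% of protein-coding peaks were higher. At Dkk2, whose product binds the LRP coreceptors, an intronic peak 1999 bp downstream of the TSS had values of 63, 64 and 76 in control and 118, 100 and 99 in Taf4a sKO libraries (0.64, SE 0.19, adjusted p = 0.01). Without Taf4a sKO replicate 1 the adjusted p was 0.055. The Dkk2 promoter peak, with 121, 119 and 132 against 179, 162 and 159, was higher as well (0.42, SE 0.16, adjusted p = 0.037), but not with TMM factors (adjusted p = 0.065) nor without each library in turn other than control replicate 3. Both Dkk3 peaks and the remaining Dkk2 peak were not called.

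At Sfrp1, which encodes a decoy that binds Wnt ligands, the promoter peak had values of 161, 191 and 182 in control and 230, 240 and 261 in Taf4a sKO libraries, with a gap between the genotypes (0.45, SE 0.15, adjusted p = 0.017). Without control replicate 1 or Taf4a sKO replicate 3 this call was lost (adjusted p up to 0.098). The Sfrp2 promoter, with 245, 209 and 260 against 308, 293 and 286, did not overlap either but missed the threshold (0.32, SE 0.14, adjusted p = 0.079). The Sfrp4 promoter overlapped between genotypes (0.19, SE 0.11, adjusted p = 0.17). Summed over its peaks, the Sfrp group had values of 1825, 1720 and 2019 in control and 2284, 2180 and 2058 in Taf4a sKO libraries.

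The antagonists are also expressed by fibroblast-like cells of muscle, so markers of other cell types were examined beside them. The bead step would remove SCA1-positive fibro-adipogenic, CD31-positive endothelial and CD45-positive haematopoietic cells, but on reanalysis an appreciable minority of the study's sorted cells were not counted as MuSCs. All 10 MuSC markers had a peak within 1000 bp of the TSS, with sums of 17698, 15392 and 18453 in control and 17160, 16094 and 15997 in Taf4a sKO libraries. Of these start site peaks the highest per kb was at Heyl, those of Myod1 and Vcam1 were higher and that of Pax7 was lower (-0.32). All these calls were lost without some single libraries, with adjusted p up to 0.18 for Myod1, 0.097 for Vcam1 and 0.33 for Pax7. With TMM factors these calls were kept. The start site peaks of Des, Myf5, Spry1 and Heyl were then called lower too (-0.36, -0.34, -0.26 and -0.20, adjusted p from 7.1e-05 to 0.0068). Of 12049 protein-coding peaks within 1000 bp of the TSS, 2714 were lower and 1198 higher with TMM factors. Farther from its start site Pax7 had 4 higher peaks (0.43 to 1.00). Those at 0.43 and 0.44 were not called with TMM factors (adjusted p = 0.14 and 0.091) nor without some single libraries. Of all 41 MuSC marker peaks 12 were higher and 3 lower. For this and the following lists, the shares over all peaks were 28% higher and 13.9% lower. Of 5 fibro-adipogenic markers, Col1a1, Dcn and Dpt had such a peak, Pdgfra and Ly6a had none, and the sums were 1813, 1568 and 1995 against 2488, 2341 and 2303. Within that list the Col1a1 and Dcn peaks were higher and the Dpt peak, the most open per kb, was lower, and of all 14 peaks of the list 6 were higher and 2 lower. Among smooth muscle and pericyte markers, Acta2, the most open, and 1 of 2 Myh11 peaks were higher, Pdgfrb was nearly as open and uncalled (-0.05, adjusted p = 0.78), Rgs5 had no such peak, the sums were 2802, 2688 and 3021 against 3481, 3244 and 3270, and 4 of all 6 peaks were higher and none lower. Endothelial markers summed to 1320, 1147 and 1648 against 1782, 1802 and 1704, with Tek, the most open, higher, Kdr uncalled and no start site peak at Pecam1, Cdh5 or Emcn. The start site calls of Acta2, Myh11 and Tek were also lost without some single libraries (adjusted p up to 0.088, 0.061 and 0.064). Those of Col1a1, Dcn and Dpt were kept (adjusted p up to 0.001, 0.0043 and 0.028). Tek went both ways, since another of its peaks was higher (0.90) and one was lost, with 156, 141 and 107 against 65, 33 and 31 (-1.69, adjusted p = 3.4e-05). None of 6 haematopoietic markers had a peak at its TSS, and of their 3 other peaks 1, at Csf1r, was higher (0.90). For tendon and myofibre markers, of which Scx and Ckm were the most open, no start site peak was called, and Tnmd and Acta1 had none. The tendon sums were 2109, 2017 and 2621 against 2942, 2468 and 2608, and the myofibre sums 387, 359 and 448 against 437, 411 and 380. Farther from start sites both Acta1 peaks were lower (-0.37 and -0.67), the only calls among all 6 myofibre and 3 tendon peaks. The part of other cell types in the changes at Dkk2 and Sfrp1 was not tested.

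Axin proteins are the scaffold of the destruction complex. The Axin1 promoter was the most open of all Wnt peaks per kb, with 2683, 2403 and 2934 in control and 2978, 2746 and 2826 in Taf4a sKO libraries, and it was not called (0.10, SE 0.10). The Axin2 promoter also overlapped between genotypes, at 2427, 2283 and 2595 against 2699, 2591 and 2415 (0.08, SE 0.10, adjusted p = 0.57). An intronic Axin2 peak 6845 bp downstream of the TSS, which holds the TCF/LEF match printed above, had 31, 26 and 34 in control and 69, 55 and 36 in Taf4a sKO libraries. It was called higher (0.75, SE 0.28, adjusted p = 0.032), with mutant replicate 3 only just above the controls. The call was lost with TMM factors (adjusted p = 0.058) and without control replicate 2 or Taf4a sKO replicates 1 or 2.

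Of the nuclear effectors, Lef1 had a promoter peak with values of 740, 717 and 769 in control and 824, 954 and 1012 in Taf4a sKO libraries (0.32, SE 0.11, adjusted p = 0.027). No mutant value fell into the control range, but the call was lost with TMM factors (adjusted p = 0.077) and without control replicates 1 or 2 or Taf4a sKO replicates 2 or 3 (adjusted p up to 0.19), and the peak also covers the start site of Gm43352. The Tcf7 promoter was uncalled, with 1635, 1543 and 1851 against 1800, 1801 and 1726 (0.09, SE 0.10). Tcf7l1, which mostly acts as a repressor, was uncalled at its promoter as well (0.10, SE 0.10).

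**Figure D4:**
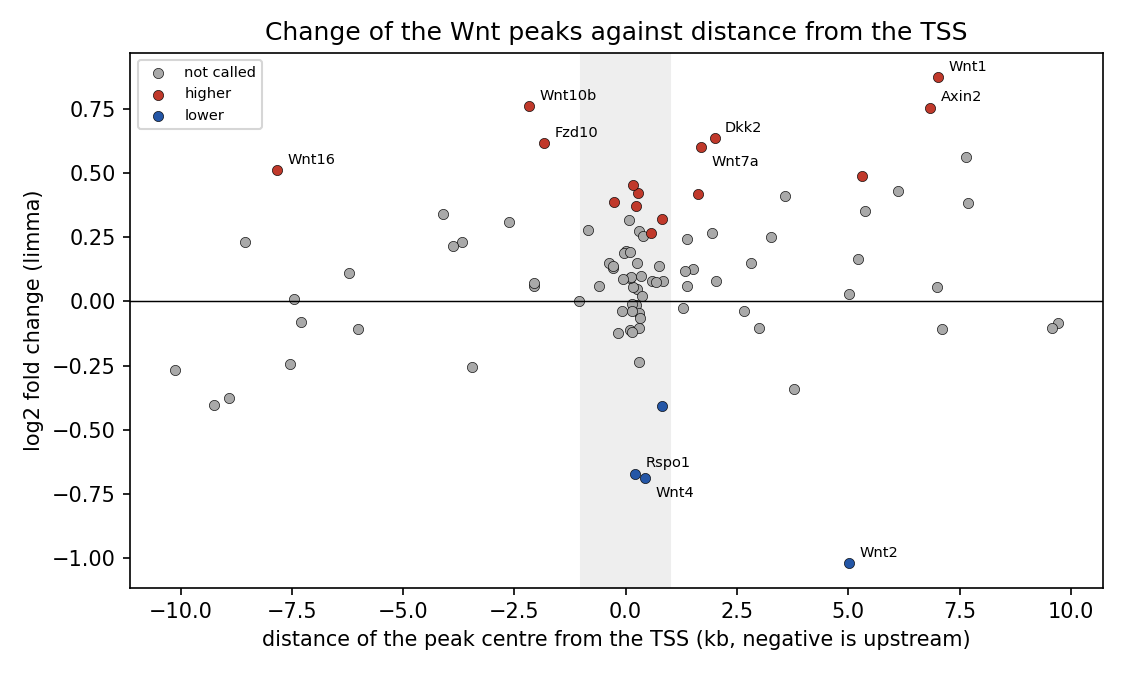
Log2 fold change of the 93 Wnt peaks (vertical axis, limma) against the distance of the peak centre from the TSS in kb (negative values are upstream). The shaded band spans 1 kb on either side, and peaks called with a log2 fold change of at least 0.5 in size are named; Wnt4 and Rspo1 lie inside the band, and the other named peaks lie outside it.

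By position, 43 Wnt peaks held a start site of their gene and 50 did not. Of the latter, 24 were centred between genes, 19 in introns and 7 in exons. Upstream of the TSS by more than 1000 bp, 3 of 20 peaks were higher (15%) and none was lower. Downstream by more than 1000 bp, 6 of 30 were higher (20%) and 1 was lower (3.33%). Of all protein-coding peaks beyond 1000 bp, 26% were higher and 14% lower. The 2 remaining pairs of neighbouring ligand genes, Wnt3a with Wnt9a and Wnt9b with Wnt3, had 6 and 2 peaks, and none of these was called. No peak was assigned to 7 further genes of these families in the GENCODE vM21 annotation, namely Wnt8b, Wnt9b, Rspo2, Rspo4, Dkk1, Dkk4 and Sfrp5.

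Openness at the start site varied widely between genes, here given as the normalized value per kb of the peak nearest the TSS, averaged over the control libraries. The median was 1050.0 for 9 Frizzled genes (311.0 to 2010.4) and 401.1 for 15 ligand genes (155.5 to 1284.9), while both Dkk genes were at or below 181.2. The Frizzled and ligand ranges overlapped, and differences between roles were not tested. Axin1, at 2355.4, stood at the 98.1 percentile of all peaks in the table, and Dkk2, at 128.2, at the 7.7 percentile. Axin1 and Fzd7 at the top were followed by Lgr4, Tcf7l1, Fzd5, Fzd1, Lrp6 and Fzd3, whose control values overlapped from one gene to the next. Farther down, the control libraries of Tcf7 (mean 703) and Lrp5 (mean 488), which are neighbours in this order, did not overlap. Wnt4, at 1284.9, was the most open ligand promoter in control and fell to 797 in Taf4a sKO MuSCs, below the control means of Wnt9a and Wnt6.

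**Figure D5:**
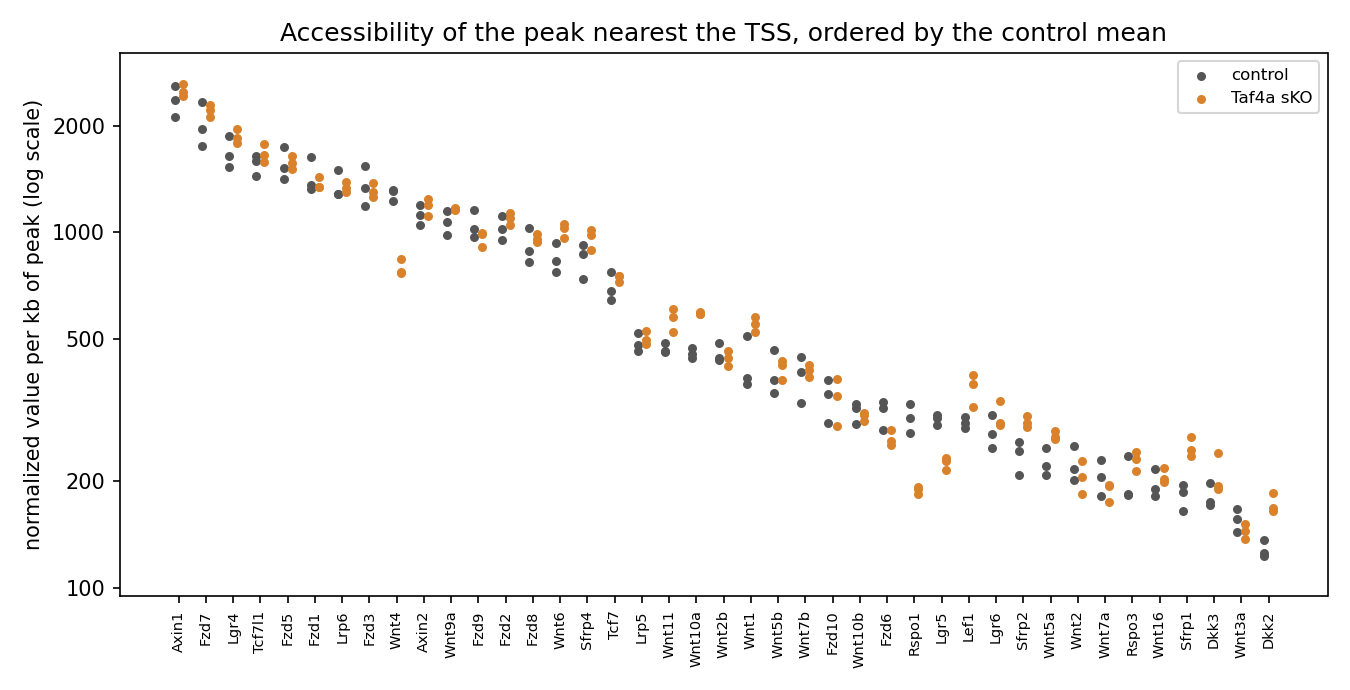
Normalized value per kb of peak (vertical axis, log scale) at the peak nearest the TSS of the 41 Wnt genes with a peak within 1000 bp, in the 3 control and 3 Taf4a sKO libraries (points). Genes are ordered by the control mean from Axin1 at 2355.4 to Dkk2 at 128.2, and the mutant points of Wnt4, Rspo1 and Lgr5 lie below all their control points.

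The Wnt peaks were rich in G and C, with a median of 60.4% against 50.5% over all peaks, and 64.2% against 60.5% within 1000 bp of the TSS. In the central 200 bp, GGGCGG was found in 39.8% of Wnt peaks and 15.5% of all peaks, but near start sites the shares were 58.1% and 51.5%. The same central window was used for each motif in peaks, and it leaves out more of the Wnt peaks, which were longer (median 803 bp against 590 bp). Shares over whole peaks were not compared. In this window CCAAT was present in 10.8% of Wnt peaks and 22.8% of all peaks, and near start sites in 9.3% and 19.7%. TGANTCA was found in 3.23% against 17.2%, but near start sites, where it was rare in general, in none of 43 Wnt peaks against 3.24%. CANNTG was found in 53.8% against 67.5%, and near start sites in 39.5% against 44.7%. Within the central 200 bp the TCF/LEF letters occurred in 3 Wnt peaks, or 3.23%, against 2.38% of all peaks, and near start sites in 2.33% against 1.02%. Promoter windows of 28 of the 44 genes were found in the RefSeq table (GRCm38.p6), and 27 of these 35 windows held GGGCGG, against 35.7% of all windows of the table. CCAAT was in 10 of the 35 windows, against 37.4% of all windows, CTTTGAT in 2, against 3.73%, TGANTCA in 1, against 7.81%, and CANNTG in 23, against 72.3%. The 35 windows belong to genes with a peak, whereas the windows of the RefSeq table were not limited to such genes, so the 2 sets are unlike.

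The remaining machinery of the pathway was described from a list of 62 genes that encode, among others, Dishevelled proteins, kinases and ubiquitin ligases of the destruction complex, planar polarity receptors, cofactors of β-catenin and common target genes. All 62 had a peak, 140 in total, of which 35 peaks of 22 genes were higher (25%) and 10 peaks of 8 genes were lower (7.14%), with a median log2 fold change of 0.10. Over all peaks 28% were higher and 13.9% lower. Split by position, 9 of 58 pathway peaks within 1000 bp of the TSS were higher (15.5%) and 4 lower (6.9%), against 10% and 5.67% of such protein-coding peaks, and beyond it 26 of 82 were higher (31.7%) and 6 lower (7.32%), against 26% and 14%. With TMM factors the counts were 35 and 31, against 25.4% and 22.3% of all peaks. The peaks given next are the extremes of this list. The smallest p-value belonged to a peak 6245 bp into Tle3, a Groucho-type corepressor bound by TCF proteins, with 682, 755 and 941 in control and 2402, 2046 and 2191 in Taf4a sKO libraries (1.49, SE 0.12, adjusted p = 4.6e-09). A peak upstream of the casein kinase gene Csnk1e had 175, 194 and 219 against 663, 576 and 563 (1.61, SE 0.14, adjusted p = 1e-08). Upstream of Tnfrsf19, a target of canonical signalling, the values were 106, 124 and 143 against 268, 327 and 368 (1.36, SE 0.16, adjusted p = 8.1e-07). All 3 were gained peaks and all mutant libraries exceeded the controls.

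The lower peaks with the smallest p-values belonged to Celsr2, Nkd2 and Pygo1. At Celsr2, a planar polarity cadherin gene, the values were 628, 502 and 669 in control and 459, 396 and 387 in Taf4a sKO libraries (-0.53, SE 0.13, adjusted p = 0.003). At the promoter of Nkd2, an inhibitor of Dishevelled, they were 56, 70 and 112 against 44, 33 and 40 (-0.96, SE 0.26, adjusted p = 0.0042), and this was the only lost peak of the list. The promoter of Pygo1, a cofactor of β-catenin, had 821, 823 and 833 against 690, 558 and 603 (-0.43, SE 0.12, adjusted p = 0.0051). In none of these did the genotypes overlap.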

How the data were processed

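Peaks were taken from the deposited table of 6 libraries. According to the methods, the authors trimmed reads with Trimmomatic 0.39, aligned them to mm10 with STAR 2.7.11b, removed duplicates with Picard 3.1.1, called peaks with MACS, merged them across samples and counted reads with featureCounts. A Tn5 offset correction was not described. Each deposited value is a score, since the authors multiplied counts by a depth factor and rounded them, and each peak carries the nearest gene within 10000 bp of a TSS. Values were tested as log2(value + 1) with limma 3.58.1 in R 4.3.3 (mean-variance trend, robust moderation) on 75384 peaks with a mean above 10, with Benjamini-Hochberg adjustment. The fit was tested on simulated data. Depth factors were recovered from the gaps between values. Gene features came from GENCODE vM21, sequences from RefSeq's GRCm38.p6. TMM and median-of-ratios factors, quantile normalization, other pseudocounts and minimum values, a replicate block and leaving out each library were alternatives. Values of each library are given for the most changed peak of each gene with a log2 fold change of at least 0.5 and non-overlapping genotypes, for the promoter peaks of 8 genes, for the extremes in openness and for 3 higher and 3 lower peaks of the 62 pathway genes. Further peaks were chosen after their values were seen. Members and lists were chosen with earlier results of these data known. RNA-seq and CUT&RUN were not analysed here, and 1 marker list is not reported here. The table's per-sample columns were all used.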

Additional observations from a re-analysis of the deposited data

How the results depend on the processing

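With 3 libraries a genotype and values of 10 to 50 at the weakest peaks, small changes are at the limit of detection. The Wnt peaks called lower numbered 12 (TMM), 13 (median of ratios) and 18 (quantile normalization), against 4; those called higher numbered 9 with median-of-ratios factors and 9 with quantile normalization, against 15. Of all peaks, 22.3%, 22.5% and 25.1% were lower and 25.4%, 25.3% and 24.8% higher under these scalings, in the order TMM, median of ratios and quantile. The median log2 change of the Wnt peaks became -0.015, -0.017 and -0.040 under these 3 scalings, against 0.096, while the median of all peaks went from 0.105 to -0.006, -0.007 and -0.024. The other pathway peaks called lower numbered 31, 31 and 38 in the same order, against 10. The lost Wnt2 peak was no longer lost (0 peaks) with quantile normalization, a pseudocount of 5 or a minimum mean of 50, and a 1.5-fold threshold gave 6 gained and 3 lost Wnt peaks. With TMM factors, 18 uncalled Wnt peaks and no called one changed sign, among them the promoters of Axin2 (-0.03), Tcf7 (-0.02) and Axin1 (-0.02). Signs also changed at the Lrp6 promoter without control replicate 3 (0.06) or without Taf4a sKO replicate 1 (0.01), and at the downstream Rspo3 peak without control replicate 1 (-0.05; the range over libraries left out reached 0.45). Leaving out each library in turn gave 7 to 24 higher, 4 to 5 lower, 0 to 1 gained and 0 to 1 lost Wnt peaks, a median of 0.059 to 0.160, 28 to 56 higher and 7 to 11 lower pathway peaks, where both upper counts of higher peaks came without control replicate 3, and -1.87 to -1.27 for the peak over Taf4 exon 12. With the replicate number as a block, 14 Wnt peaks were higher and 5 lower, since the Wnt6 promoter peak was no longer called (adjusted p = 0.055) and an upstream Wnt3 peak was (-0.40, adjusted p = 0.047). Same-numbered libraries deviated together with correlations of 0.11, -0.118 and -0.029, so the numbers were not taken to pair the samples. Planned count-based tests were not run. The deposited values are rounded after scaling and are not counts, and read counts recovered through the depth factors were not tested.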

Other observations

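Long genes of the pathway hold further peaks that the table assigns to no gene. In the bodies of 19 family genes there were 70 such peaks, a set chosen after the data had been seen, of which 16 were higher (22.9%) and 12 lower (17.1%), with 3 gained (4.29%) and 5 lost (7.14%). Of all peaks assigned to no gene, 32.9% were higher and 16% lower by limma, and 8.94% were gained and 6.77% lost, so these shares were near or below the background, and the peaks given here are the extremes of the set. An annotated start site of Lgr6 or Wnt5b lay within 3 of the 70 peaks. The gained peaks lay in Lgr4, with 188, 190 and 196 in control and 465, 443 and 486 in Taf4a sKO libraries (limma log2 fold change 1.27, adjusted p = 1.6e-07), in Lgr6, with 161, 161 and 169 against 361, 374 and 453 (1.26, adjusted p = 4.2e-07), and in Lrp5, with 85, 57 and 59 against 168, 130 and 135 (1.11, adjusted p = 9.8e-05). Each of these 3 changes was larger than any at the peaks assigned to the same genes, none of which was called. The Lgr6 peak lies next to an alternative start site of Lgr6, and the peak over that start site was also higher, with 114, 104 and 168 against 204, 240 and 323 (0.99, adjusted p = 0.00049).

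Lost peaks lay in Wnt5b, which encodes a non-canonical ligand and had no called peak among those assigned to it. One had 33, 34 and 36 in control and 6, 10 and 9 in Taf4a sKO libraries (-1.95, adjusted p = 0.00019), and the other had 121, 92 and 140 against 31, 19 and 76 (-1.67, adjusted p = 0.014). Further lost peaks lay in Wnt9a, with 71, 59 and 47 against 21, 21 and 25 (-1.35, adjusted p = 0.00035), in Fzd3, with 60, 40 and 52 against 14, 27 and 30 (-1.12, adjusted p = 0.0054), and in Lrp5, with 235, 206 and 309 against 128, 107 and 111 (-1.09, adjusted p = 2e-05). Lrp6 had 14 peaks in its body, of which 5 were higher (35.7%) and none was lower, beside an uncalled promoter. This is near the 32.9% higher among all peaks assigned to no gene, of which 16% were lower. Tcf7 had 3 such peaks, of which 2 were lower, too few to set against these shares.

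A further 15 peaks in the bodies of 4 family genes are assigned in the table to another gene, and 4 of these were higher (26.7%), none was lower and 3 were gained (20%), against 28% higher, 13.9% lower and 7.03% gained of all peaks. In Axin2 the gained peak had 28, 39 and 36 in control and 92, 82 and 105 in Taf4a sKO libraries (1.42, adjusted p = 3e-05). In Tcf7l1 one had 438, 417 and 565 against 1211, 1111 and 1119 (1.29, adjusted p = 4.7e-08), and the other had 90, 114 and 165 against 279, 319 and 324 (1.36, adjusted p = 8.3e-06). The promoters of Axin2 and Tcf7l1 were uncalled.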
